A study of Arabidopsis thaliana with 16 samples.

Results

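The set described here holds transcripts of Arabidopsis thaliana seedlings, read after activation of ARR1, a response regulator of cytokinin signalling. Their mean levels increased more on this activation under an inhibitor of gibberellin (GA) synthesis, meant to stabilise DELLA proteins, than when GA3 was also supplied. Levels of GA and of DELLA proteins were not read from these arrays. Members were chosen on measured group means on the log2 scale. The response of the ARR1 line to dexamethasone (DEX) in paclobutrazol (PAC) had to be at least 0.8, it had to exceed the same response in PAC with GA3 by at least 0.6, and the response of wild type to DEX had to stay below 0.5. Only 5 of the 9454 probe sets that were bright enough to test (log2 of 4 or more on 2 or more arrays) met all conditions, which is 0.0529%. A probe set is the group of short probes on the array that reads 1 transcript or a few similar ones. The platform annotation gave 1 gene for 2 of the 5, AT1G51890 (probe set 246368_at) and AT2G27710 (266256_at). It listed several genes for 248844_s_at and none for 247215_at and 259952_at, so these 3 are called by their probe set.

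Whole seedlings were profiled on 16 Affymetrix ATH1 arrays, in 8 groups of 2 arrays that the labels call biological replicates. The inducible line carried ARR1ΔDDK:GR, a form of ARR1 without its receiver domain, fused to the glucocorticoid receptor and driven by the constitutive 35S promoter in the Columbia-0 background. Seedlings of the line received 10 µM PAC for 18 h (ARR1_PAC), or 10 µM PAC with 50 µM GA3 (ARR1_PAC_GA), each without or with 5 µM DEX for 3 h (ARR1_PAC_DEX and ARR1_PAC_GA_DEX). Columbia-0 wild type was left untreated (Col_mock), received 5 µM DEX for 3 h without PAC (Col_DEX), or received PAC or PAC with GA3 followed by 5 µM benzyladenine (BA), a cytokinin, for 3 h (Col_PAC_BA and Col_PAC_GA_BA). All seedlings were moved to liquid medium at an age of 5 days, and the labels give the tissue as 6-day-old seedlings. The 35S promoter places the fusion in most cells rather than in those that normally use ARR1, and the wild type was given DEX without PAC. In whole seedlings fewer cells of a type and less RNA per cell cannot be told apart. Nothing stated that replicates came from separate cultures, so the p-values given here measure the spread between these samples, which may be technical.

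Cytokinins act through a phosphorelay that ends on type-B response regulators such as ARR1, transcription factors that switch on primary response genes, among them the type-A response regulators. DELLA proteins are nuclear regulators that restrain growth, and GA causes their degradation. PAC blocks GA synthesis, so DELLAs accumulate in PAC and are removed when GA3 is added. The comparison of the DEX response in both conditions asks whether ARR1 acts differently on a gene under the treatment meant to keep DELLAs present.

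Activation itself was seen on every DEX array of the line. RR16, a type-A response regulator, had log2 levels of 4.67 and 5.11 in ARR1_PAC and 9.88 and 9.90 in ARR1_PAC_DEX, and of 5.21 and 4.99 in ARR1_PAC_GA and 10.10 and 10.29 in ARR1_PAC_GA_DEX. RR16 was also higher with DEX in wild type, at 5.08 and 5.64 against 4.28 and 3.99 untreated, by 1.22 (limma, adjusted p = 0.0484). ARR15, another type-A regulator, was higher by 3.33 in PAC and 4.23 with GA3, and by 0.05 in wild type (adjusted p = 2.92e-05, 3.16e-06 and 1). Correlations between replicate arrays over the tested probe sets were 0.968 to 0.985. The 3′ minus 5′ difference of the ubiquitin control probe sets, a sign of RNA integrity, was 2.85 to 3.35 on the 4 arrays of the line without GA3 and 2.34 to 2.46 on the 4 with GA3. That of GAPDH was 6.29 or more and 6.09 or less in these groups of arrays, and that of actin 6.76 to 7.02 and 6.79 to 7.03. The ubiquitin difference was highest of all arrays, at 3.35, on ARR1_PAC replicate 2. The part of these differences in the results below was not tested. The root marker AT3G09260 (PYK10) was bright on every array, at 10.70 to 11.55, and none of the 8 shoot markers listed had a named probe set.

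AT1G51890 encodes a leucine-rich repeat receptor-like kinase, one of a group of such kinases encoded at neighbouring loci. Its log2 levels were 2.76 and 2.91 in ARR1_PAC and 3.82 and 4.50 in ARR1_PAC_DEX, so both DEX arrays stood above both controls. With GA3 the levels were 2.98 and 2.85 without DEX and 2.43 and 4.11 with DEX. There the groups overlapped, since replicate 1 with DEX was the lowest of the 16 arrays and replicate 2 was the second highest. In wild type the levels were 2.77 and 2.69 untreated, 2.81 and 2.95 with DEX, 3.45 and 2.87 in Col_PAC_BA, and 2.95 and 2.85 in Col_PAC_GA_BA. The response to DEX was 1.32 on the log2 scale in PAC and 0.36 in PAC with GA3. The difference of the responses was 0.96 ± 0.57 (SE). This SE, like those of the differences below, came from the limma fit, which pools the spread of a probe set over all 16 arrays. The ARR1_PAC_GA_DEX replicates of AT1G51890 had a standard deviation of 1.19, so the SE may understate the spread of the groups compared. AT1G51890 reached a level of 4 on 2 arrays only, and its control levels lay near the common low value of dim probe sets, so no fold is given.

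AT2G27710 encodes an acidic P2 protein of the ribosomal stalk, the flexible arm of the large subunit that recruits translation factors. It was the brightest of the 5 probe sets. Its log2 levels were 10.64 and 9.35 in ARR1_PAC, 11.10 and 10.53 in ARR1_PAC_DEX, 10.80 and 10.92 in ARR1_PAC_GA, and 10.95 and 11.08 in ARR1_PAC_GA_DEX. The groups overlapped in PAC, where replicate 1 without DEX was above replicate 2 with DEX, and ARR1_PAC replicate 2 was the lowest of all 16 arrays. The wild type levels were 10.93 and 10.71 untreated, 10.71 and 10.65 with DEX, 10.47 and 11.16 in Col_PAC_BA, and 10.01 and 10.27 in Col_PAC_GA_BA. The response to DEX was 0.82 in PAC (1.77-fold) and 0.16 with GA3, a difference of 0.66 ± 0.48 (SE). AT2G27710 was the only member in which the larger part of this difference lay in the uninduced seedlings. Without DEX its mean level was 0.86 higher with GA3 than without, and with DEX it was 0.20 higher.

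The probe set 248844_s_at had the largest difference of the 5. Its log2 levels were 6.20 and 5.94 in ARR1_PAC and 7.17 and 6.63 in ARR1_PAC_DEX, and 6.76 and 6.11 in ARR1_PAC_GA and 6.05 and 4.64 in ARR1_PAC_GA_DEX. Both DEX arrays were above both controls in PAC, and both were below both controls with GA3, where the higher DEX array lay just under the lower control. The mean level was highest in untreated wild type, where the arrays had 7.99 and 7.81. Wild type with DEX had 7.93 and 6.62, Col_PAC_BA 6.41 and 6.37, and Col_PAC_GA_BA 6.12 and 6.46. The DEX response was 0.83 in PAC and -1.09 with GA3, a difference of 1.92 ± 0.63 (SE, pooled over all arrays). The ARR1_PAC_GA_DEX replicates had a standard deviation of 0.99, so this SE too may understate the spread of the groups compared. DEX in wild type gave a mean difference of -0.62, with replicate 2 alone below the untreated arrays by more than their spread.

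The last 2 members, without a gene in the annotation, were dim. For 247215_at the log2 levels were 3.00 and 3.08 in ARR1_PAC, 4.24 and 4.52 in ARR1_PAC_DEX, 2.83 and 2.87 in ARR1_PAC_GA, and 2.91 and 4.16 in ARR1_PAC_GA_DEX. DEX replicate 1 with GA3 was barely above its controls, whereas replicate 2 was near the levels reached in PAC. The wild type levels of 247215_at were 2.88 and 2.81 untreated, 3.08 and 2.83 with DEX, 3.97 and 3.56 in Col_PAC_BA, and 4.61 and 3.00 in Col_PAC_GA_BA. Its control levels also lay near the low value of dim probe sets. Its DEX response was 1.33 in PAC and 0.68 with GA3, a difference of 0.65 ± 0.62 (SE).

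For 259952_at the log2 levels were 3.55 and 4.20 in ARR1_PAC, 4.32 and 5.03 in ARR1_PAC_DEX, 3.99 and 4.06 in ARR1_PAC_GA, and 3.49 and 4.54 in ARR1_PAC_GA_DEX. The groups were apart in PAC by only 0.12 and overlapped with GA3. In wild type its levels ran from 3.47 to 3.89 over all 8 arrays. The DEX response was 0.80 in PAC and -0.01 with GA3, a difference of 0.81 ± 0.45 (SE).

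**Figure D1:**
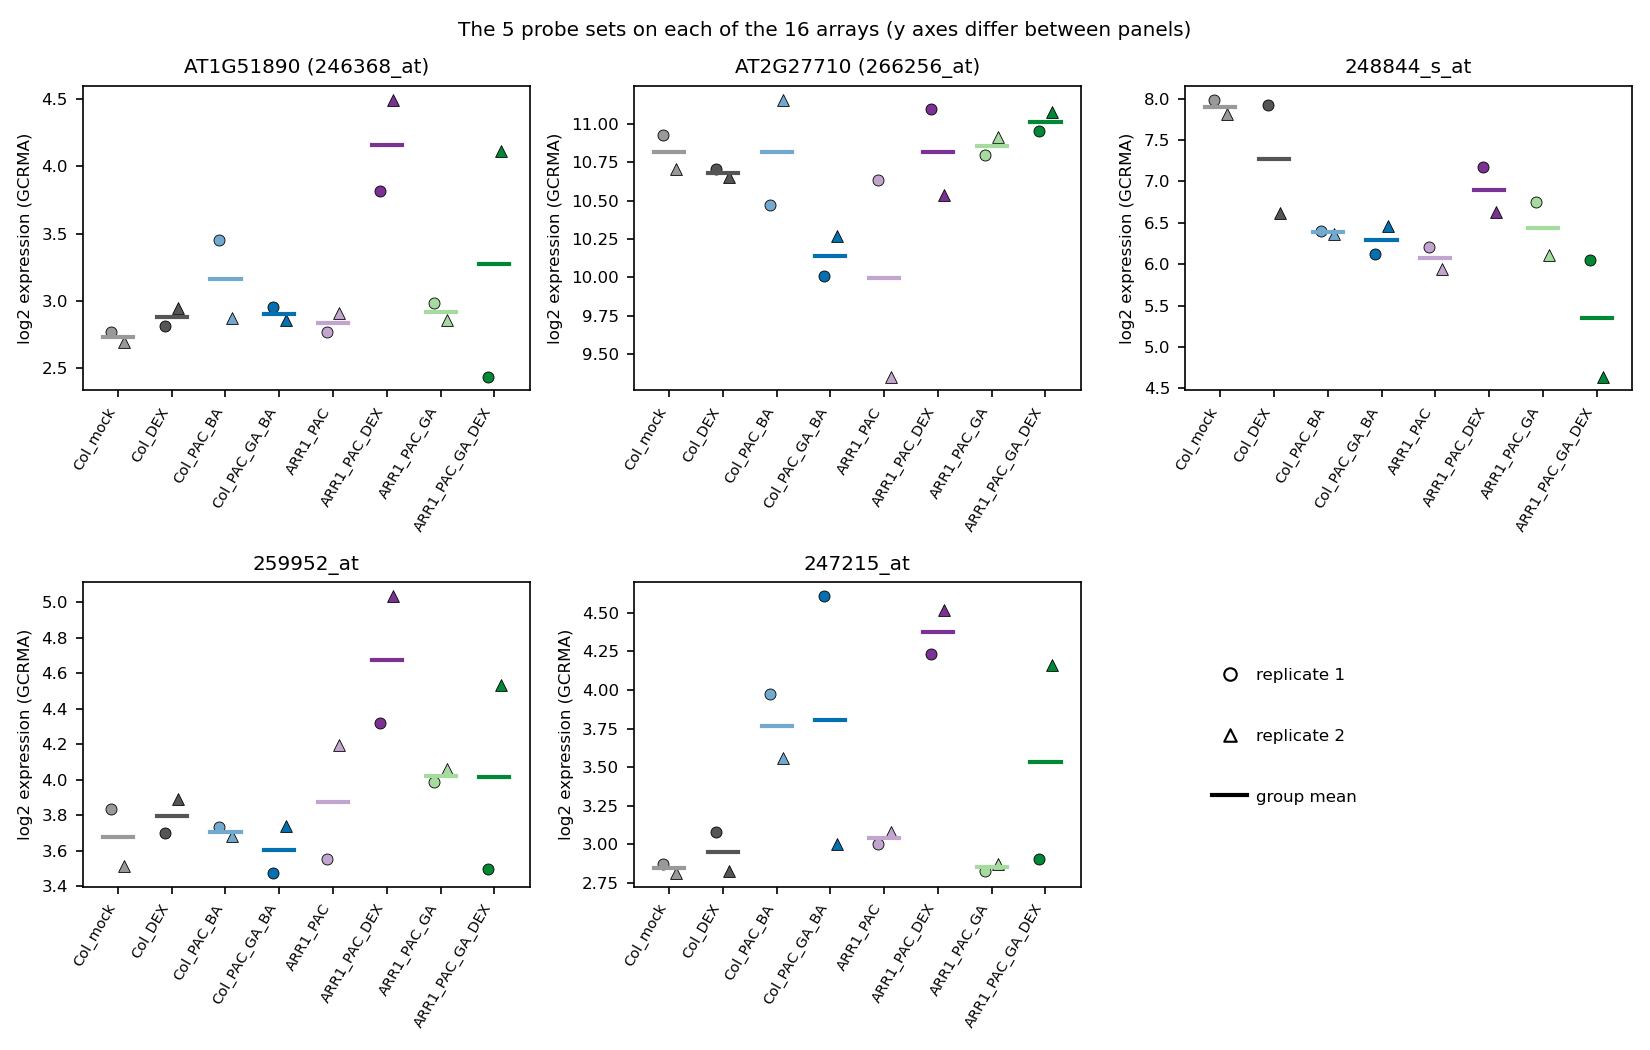
Log2 expression (GCRMA, vertical axes, which differ between panels) of the 5 probe sets in each of the 8 groups, with circles for replicate 1, triangles for replicate 2 and lines for group means. In ARR1_PAC_GA_DEX the replicates of AT1G51890 lie at 2.43 and 4.11, those of 247215_at at 2.91 and 4.16 and those of 259952_at at 3.49 and 4.54, and AT2G27710 is lowest on ARR1_PAC replicate 2 at 9.35.

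Both DEX arrays stood above both controls for 4 of the 5 members in PAC, AT2G27710 being the exception, where 24.6% of all tested probe sets did so. With GA3 this held for 2 of the 5, 247215_at and AT2G27710, against 30.2% of all tested. These counts come from the arrays that chose the members and are given as a description. The members were few beside the genes that responded to DEX at all. The DEX response in PAC reached 0.8, with the wild type condition met, for 497 probe sets, and the response with GA3 did so for 585. The mirrored rule, with the response larger by at least 0.6 in GA3, was met by 39 probe sets. That count was 21 after quantile normalization and 34 to 190 with 1 array left out, and without ARR1_PAC replicate 1 the order turned, with 114 for the rule and 58 for its mirror.

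Over all tested probe sets the median difference of the DEX responses was -0.02. It was at least 0.6 for 63 (0.666%) and at most -0.6 for 232 (2.45%), so 21.4% of these large differences were on the side of the members. After quantile normalization the counts were 96 and 183 (34.4%), and after centring each array on its 75th percentile they were 92 and 181 (33.7%). Without ARR1_PAC replicate 1 they were 397 and 540 (42.4%), and without ARR1_PAC_DEX replicate 2 they were 385 and 542 (41.5%). In the limma fit over all tested probe sets 0 of 9454 (0%) had a difference past an adjusted p of 0.05. An unadjusted p below 0.05 was found for 188, a smaller share than the 0.05 that would fall there without any difference. No replicate block was fitted for this difference. The 95% interval of a difference had a median half-width of 0.62, about the size of the threshold of the rule.

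**Figure D2:**
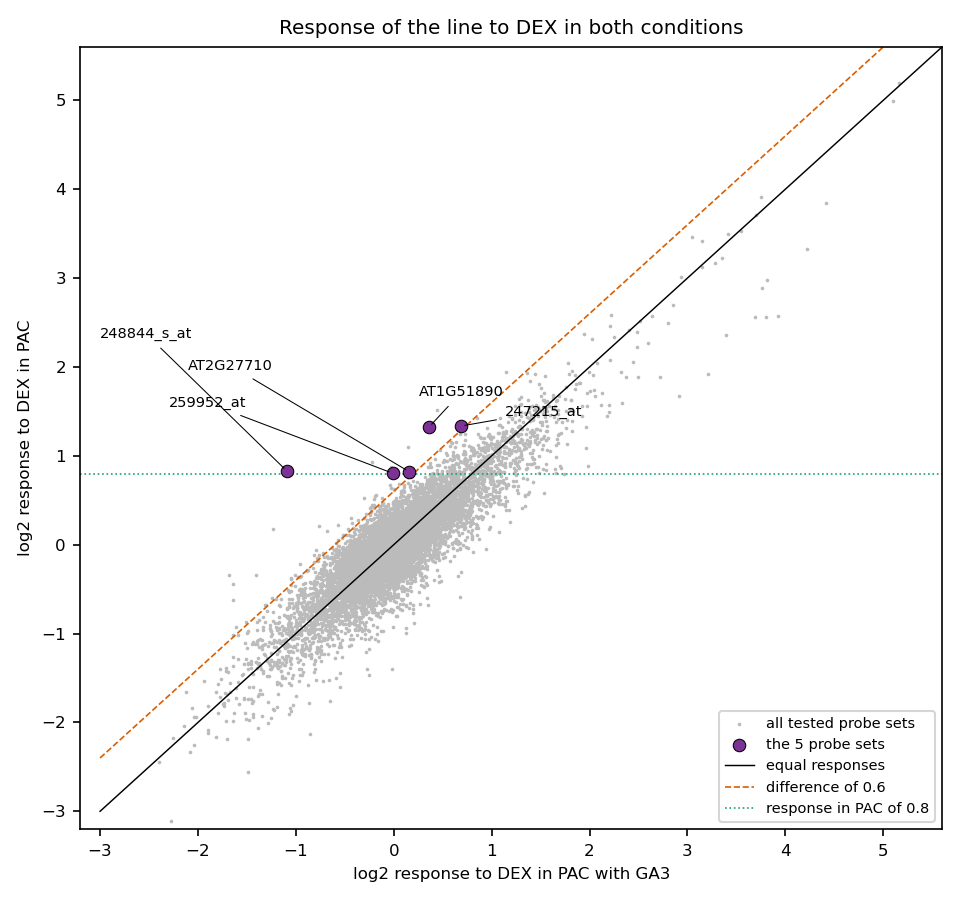
Log2 response of the line to DEX in PAC with GA3 (horizontal axis) and in PAC (vertical axis) for the 9454 tested probe sets (grey) and the 5 members (purple), with lines for equal responses, a difference of 0.6 and a response of 0.8. Of the members, 248844_s_at lies farthest from the line of equal responses, at -1.09 and 0.83.

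The values on either side of the thresholds were close. By the difference of the responses, 247215_at (0.65) and AT2G27710 (0.66) were the nearest members, and AT3G07860 (0.598, with a DEX response of 1.07 in PAC), 254080_at (0.57) and AT5G06050 (0.55) were the nearest outside. By the response in PAC, 259952_at (0.80) and AT2G27710 (0.82) were nearest inside, and AT2G21230 and AT2G30930 (both 0.68, with differences of 0.63 and 0.72) were nearest outside. The wild type condition kept out 5 more. Among them were AT5G03350, a legume lectin family gene that was 2.46 higher with DEX in wild type, and AT5G14650, a polygalacturonase family gene that was 2.69 higher there.

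When each of the 12 arrays behind the rule was left out in turn, none of the 5 members met the rule every time. ARR1_PAC_GA_DEX replicate 1 decided most. Without it only 248844_s_at remained of the 5, and the differences were 0.12 for AT1G51890, 0.02 for 247215_at, 0.29 for 259952_at and 0.599 for AT2G27710. Without ARR1_PAC replicate 2 the difference of AT2G27710 was 0.02. The member 248844_s_at kept a difference above 0.6 throughout, but its DEX response in PAC was 0.70 without ARR1_PAC replicate 2 and 0.55 without ARR1_PAC_DEX replicate 1. AT1G51890 left the set in 1 of the 12 settings, 247215_at and 248844_s_at in 2 each, and 259952_at and AT2G27710 in 3 each. The number of probe sets meeting the rule ran from 5 to 114, the highest without ARR1_PAC replicate 1.

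**Figure D3:**
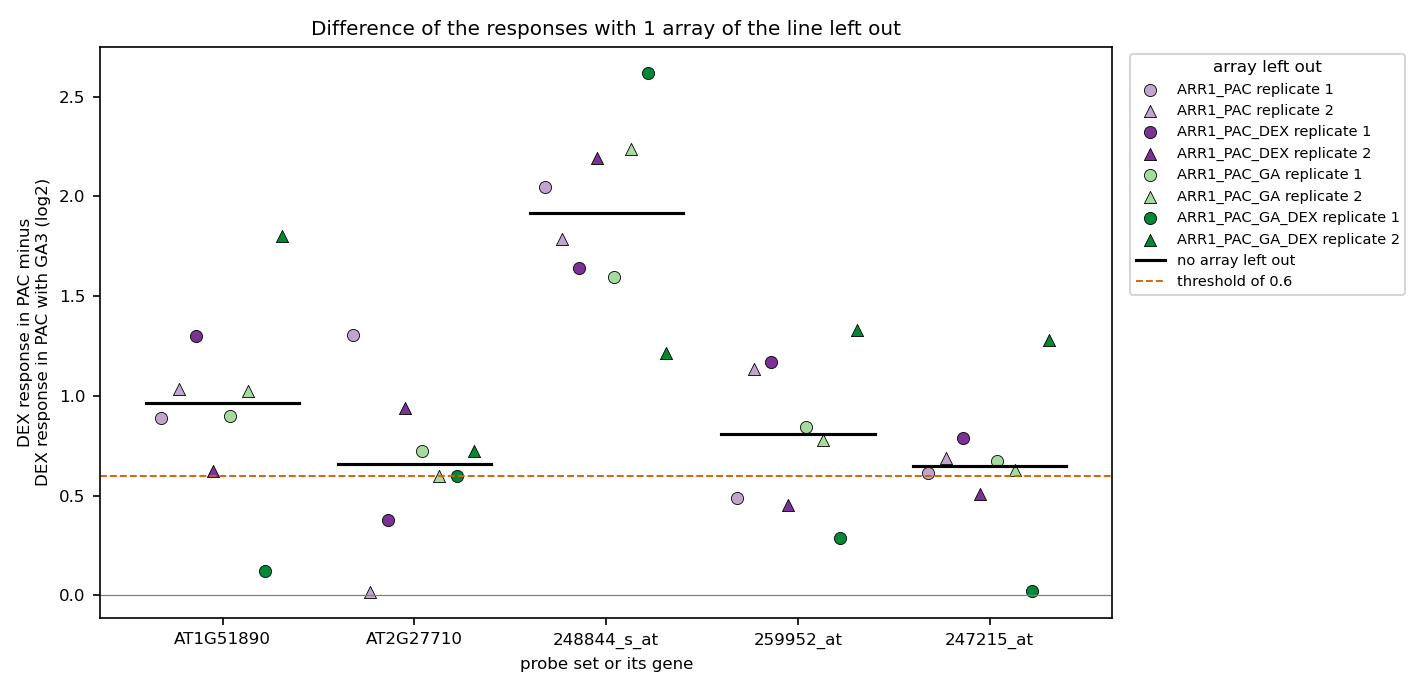
Difference of the DEX responses, PAC less PAC with GA3 (log2, vertical axis) for each member with 1 of the 8 arrays of the line left out, the black lines giving the value from all arrays and the dashed line the threshold of 0.6. Without ARR1_PAC_GA_DEX replicate 1 (dark green circles) AT1G51890 falls to 0.12 and 247215_at to 0.02, and without ARR1_PAC replicate 2 AT2G27710 falls to 0.02.

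Other genes of the ribosomal stalk were examined beside AT2G27710, from a list of 12 loci drawn up after the members were known, which includes AT2G27710 itself. The P0 protein forms the base of the stalk, and the P1, P2 and plant P3 proteins are its acidic arms. Of the 10 other genes tested, the DEX response was above 0 in PAC for all 10 (median 0.58, 0.20 to 1.07) and for 9 with GA3 (median 0.34), against medians of -0.03 and -0.02 over all probe sets. In the limma fit 2 of the 10 were called higher in each condition, where 9.12% and 10.4% of all tested were. Those called in PAC, AT3G11250 and AT2G40010, were P0 genes, so no other acidic gene was called there. With GA3 they were AT2G40010 and the acidic AT4G25890. The difference of the responses was above 0 for 8 of the 10, with a median of 0.23, where it was above 0 for 46.2% of all tested probe sets. The list was drawn up because of AT2G27710, so these counts are a description. Whether the probes also read near-identical stalk genes was not checked.

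The 8 acidic stalk genes, AT2G27710 among them, had their lowest level of all 16 arrays on ARR1_PAC replicate 2, whereas none of the 3 P0 genes did. Over all tested probe sets, 49.8% were lower on ARR1_PAC replicate 2 than on replicate 1. The share with their lowest level on that array was not counted. AT4G00810, a P1 gene, had log2 levels of 9.53 and 8.18 in ARR1_PAC, against 8.71 to 9.79 on the other 14 arrays. The P0 gene AT3G09200 went the other way, with 8.93 and 9.80. Without ARR1_PAC replicate 2 the difference was above 0 for 4 of the 10 other stalk genes, with a median of -0.21. The low acidic stalk values thus lay on the array with the highest ubiquitin 3′ minus 5′ difference, and the part of that in the result was not tested.

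**Figure D4:**
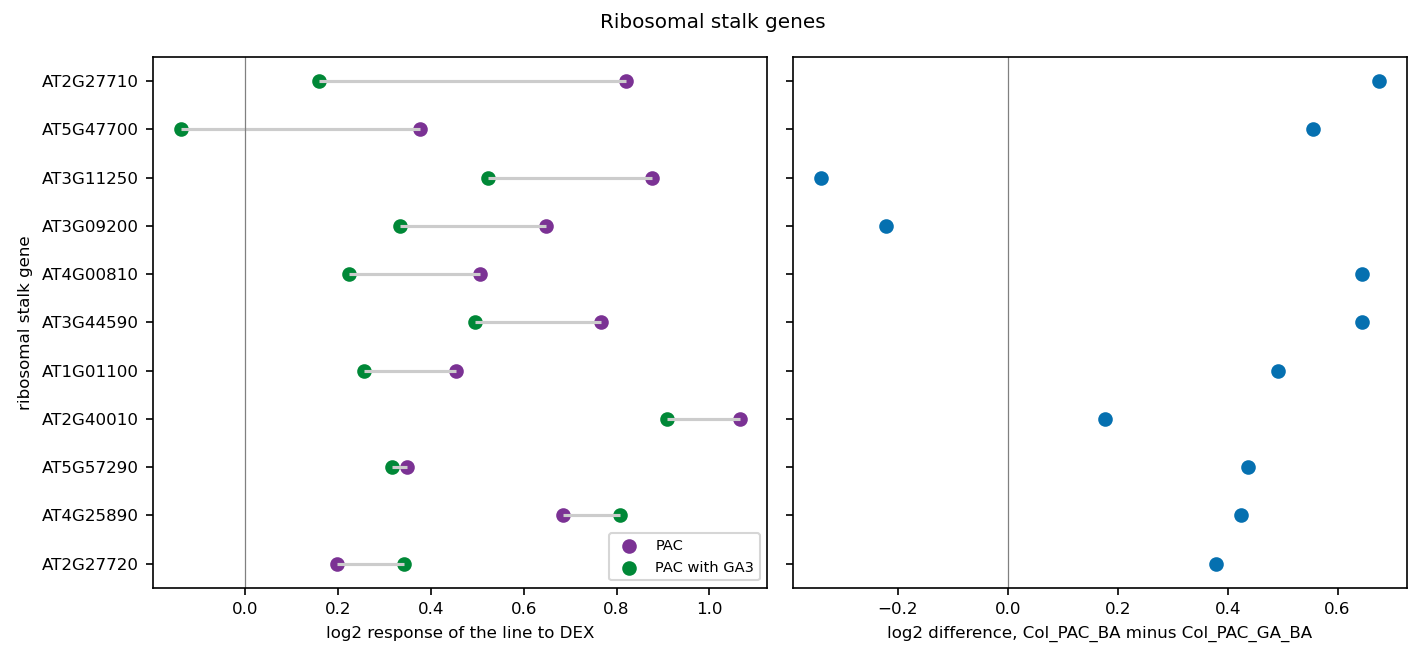
Left, log2 response of the line to DEX in PAC (purple) and in PAC with GA3 (green) for the 11 tested ribosomal stalk genes, including the member AT2G27710. Right, log2 level in Col_PAC_BA minus that in Col_PAC_GA_BA for the same genes, above 0 for 9 of 11 and largest for AT2G27710 at 0.68.

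For AT1G51890, the loci AT1G51790 to AT1G51910 were taken as its neighbours, again after the members were known. Of 13 loci, 10 had a probe set and 4 were tested. Outside AT1G51890 the tested genes had small differences of the responses, -0.24 for AT1G51850, -0.06 for AT1G51805 and 0.09 for AT1G51830. On ARR1_PAC_GA_DEX replicate 2, where AT1G51890 was high, 4 of the 10 had their highest level of all arrays. AT1G51850 had 4.69 and 5.69 on the replicates of that group, and AT1G51820 3.40 and 4.38. AT1G51830 went the other way, with 5.46 and 5.09, the latter its lowest of all arrays. Among the 4, AT1G51790 and AT1G51820 were too dim to be tested, each reaching a level of 4 on 1 array. How many of all probe sets were highest on ARR1_PAC_GA_DEX replicate 2 was not counted.

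No member was found among the few genes of the cytokinin, GA and ribosome biogenesis lists that were tested, and the 3 members without a single gene could not be matched to a list. Of 24 ribosome biogenesis loci 12 were tested, and 11 were called higher after DEX in PAC and 11 with GA3 (limma, adjusted p below 0.05), with a median difference of -0.09 (-0.54 to 0.36). Of 10 type-A regulators 2 were tested, ARR15 and RR16, and they had differences of -0.89 and -0.10. The cytokinin glucosyltransferase UGT76C2, the 1 tested of 16 loci of cytokinin metabolism and perception, had -0.49. Of 17 DELLA and GA loci 2 were tested, XERICO and AT5G50915, with differences of -0.59 and 0.03. In BA-treated wild type they were 0.39 and 1.48 higher without GA3, and neither was called (limma, adjusted p = 0.556 and 0.226). Of 6 genes that the study followed up, 2 were tested, DECOY and AT1G07830, with differences of 0.31 and 0.44. These were chosen by the study on these same arrays, so their array values give no independent evidence of a direction. The study also examined its 6 genes by RT-qPCR and chromatin immunoprecipitation, which the arrays do not cover. No list gene had a called difference, as for all tested probe sets.

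The wild type arrays with BA were not part of the responses that chose the members, but they counted among the 16 arrays of the filter on dim probe sets. Col_PAC_BA against Col_PAC_GA_BA, which shared no array with the group means of the rule, asked whether the absence of GA3 changed the members when cytokinin was given to wild type. In the limma fit 0 of the 5 were called, where 3 of 9454 (0.0317%) were called in all and 1013 had an unadjusted p below 0.05. The largest value was that of AT2G27710, 0.68 ± 0.34 higher without GA3 (SE, 95% interval -0.07 to 1.42, adjusted p = 0.487), and its arrays did not overlap between the groups, as for 18.9% of all tested probe sets. The others were 0.26 ± 0.40 for AT1G51890 (adjusted p = 0.813), 0.10 ± 0.44 for 248844_s_at (0.944), 0.10 ± 0.32 for 259952_at (0.918) and -0.04 ± 0.44 for 247215_at (0.976). Intervals of this width do not show that the levels were alike. Without Col_PAC_BA replicate 2 the value of AT2G27710 was 0.33, and without Col_PAC_BA replicate 1 it was 1.02 (adjusted p = 1 and 0.177). Over the 10 other stalk genes the median was 0.43, against -0.04 over all probe sets, with none called. Of these, the 7 acidic genes ranged from 0.38 to 0.65 and the P0 genes from -0.34 to 0.18. All 7 were higher on Col_PAC_BA replicate 2 than on replicate 1, by 0.39 to 0.72. The ubiquitin 3′ minus 5′ difference was 2.56 on that array and 3.04 to 3.12 on the other 3 arrays with BA, and its part in the result was not tested.

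Against untreated wild type, PAC and BA cannot be told apart, and the untreated arrays were also used by the wild type condition of the rule. In Col_PAC_BA 0 of the 5 members were called, where 827 probe sets (8.75%) were and 2483 had an unadjusted p below 0.05. In Col_PAC_GA_BA 1 was called, where 647 (6.84%) were. This was 248844_s_at, lower by 1.61 ± 0.44 (SE, limma, adjusted p = 0.0478). In Col_PAC_BA it differed by -1.51 ± 0.44 (adjusted p = 0.0526), so the values were similar on either side of the threshold. The call in Col_PAC_GA_BA was lost without the filter on dim probe sets (adjusted p = 0.186), after quantile normalization (0.0619), with trend and robust settings (0.0531) and in 12 of the 16 fits with 1 array left out. The member 247215_at had values of 0.92 ± 0.44 and 0.96 ± 0.44 (adjusted p = 0.202 and 0.196). The second rested on 1 array, being 0.16 without Col_PAC_GA_BA replicate 1 (adjusted p = 0.919) and 1.76 without replicate 2 (0.0295). AT2G27710 had -0.005 ± 0.34 and -0.68 ± 0.34 (0.996 and 0.244). AT1G51890 and 259952_at differed by at most 0.43 from untreated wild type in either group.

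**Figure D5:**
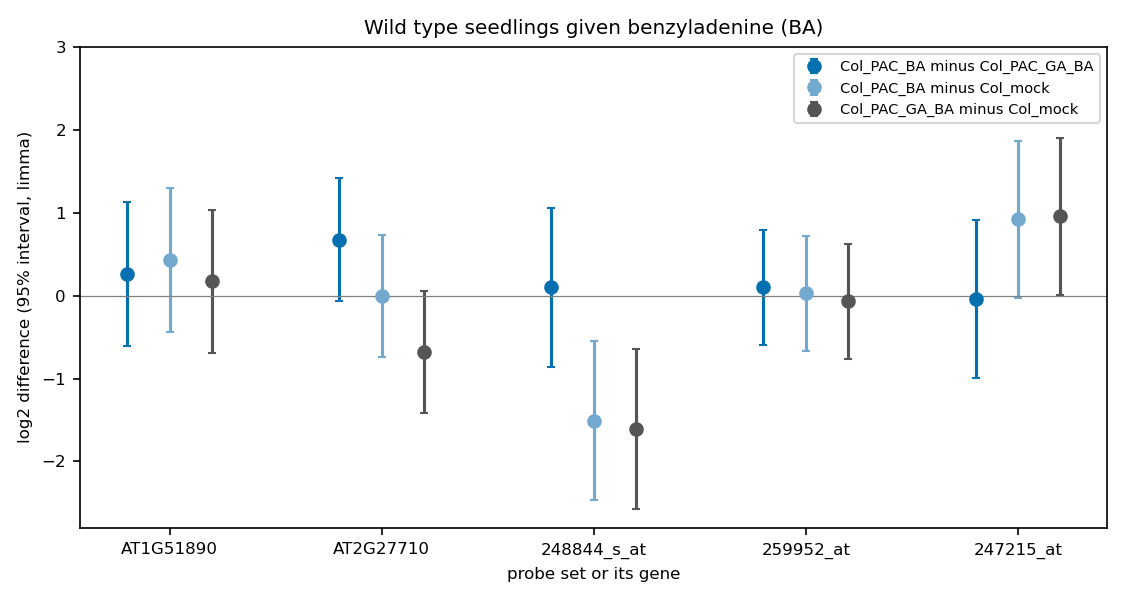
Log2 difference (vertical axis) of the 5 members in 3 comparisons of wild type groups, with points for the limma estimates and bars for their 95% intervals. The intervals of 248844_s_at lie below 0 against Col_mock, at -1.51 and -1.61, and that of AT2G27710 without against with GA3 reaches from -0.07 to 1.42.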

How the data were processed

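Total RNA of whole seedlings was hybridised to Affymetrix ATH1 arrays. The authors deposited log2 values for each probe set, made with GCRMA, which corrects background, normalizes between arrays and summarises probes, so that dim probe sets are drawn to a common low value (the lowest here was 2.36). Of GCRMA, the version is not given in the sources used here. There were 22810 probe sets and 0 columns of no sample. After 64 control probe sets were removed, 9454 of 22746 reached log2 4 on 2 or more of the 16 arrays and were tested. Probe sets were named from the platform annotation where it gave 1 gene (4925 of those tested).

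Group means and their differences were computed from these values. The comparisons of BA-treated wild type were tested with limma 3.58.1 in R 4.3.3 on all 16 arrays (group means, no covariate, 8 residual degrees of freedom, two-sided, Benjamini-Hochberg over all tested probe sets, called at an adjusted p below 0.05), since 2 arrays per group limit the precision. The fit was tested on simulated data for Col_PAC_BA minus Col_PAC_GA_BA. It recovered 10% of changes of 0.5, 64.3% of changes of 1 and 95.7% of changes of 2 on the log2 scale. Of the calls, 5.55% were false. The simulated noise was independent between arrays, without the correlation of same-numbered arrays described below, so these shares may differ for the real arrays. Responses to DEX and their difference chose the members and were given without a p-value for them. The members and gene lists were chosen with earlier results of these data known. Members with 1 gene, fixed lists and the probe sets nearest the thresholds were named. The members without a single gene, the stalk genes and the kinase neighbours were named after their values were seen. Alternatives tried were a floor of 6, no filter, centring on the 75th percentile, quantile normalization, trend and robust settings, a replicate block, only the groups compared, a Z test as 1 reading of the study's methods, and leaving out each array.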

Additional observations from a re-analysis of the deposited data

Results flagged for a closer look

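The probe set 248844_s_at was singled out because both DEX arrays lay above both controls in PAC and both lay below both controls in PAC with GA3, so that the responses had opposite directions, with a difference of 1.92 on the log2 scale. The difference was not tested, since these values chose the probe set. Groups of 2 arrays were too small to look for single outlying samples.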

How the results depend on the processing

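The number of probe sets meeting the rule was 5, and it was 2 with a floor of 6, 9 after quantile normalization (4 of the 5 among them), 52 with thresholds of 0.6 and 0.4 (chosen after seeing the data) and 5 to 114 with 1 array left out. For Col_PAC_BA against Col_PAC_GA_BA the 3 calls became 51 without a filter, 0 with a floor of 6, 0 with only the groups compared, 481 with the Z test, and 0 to 173 with 1 array left out (173 without Col_PAC_BA replicate 1), and no member was called in any of them. For Col_PAC_BA against Col_mock the 827 calls became 532 with a floor of 6, 98 with only the groups compared, 469 with the Z test and 159 to 959 with 1 array left out (159 without Col_mock replicate 2, 228 without replicate 1, 221 without Col_PAC_BA replicate 2). There the members called were 1 with a floor of 6, the replicate block, only the groups compared and the Z test, and 0 to 1 with 1 array left out. For Col_PAC_GA_BA against Col_mock the 647 calls became 404 without a filter, 400 with a floor of 6 and 127 to 750 with 1 array left out (127 without Col_PAC_GA_BA replicate 1, 419 without replicate 2, 169 and 174 without Col_mock replicates 1 and 2). The members called became 0 without a filter, after quantile normalization and with trend and robust settings, and 0 to 1 with 1 array left out. Without Col_PAC_GA_BA replicate 2, 247215_at was called there instead, at 1.76, and without replicate 1 it was 0.16. The cause of these changes was not tested.

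Values that changed sign had no call. For Col_PAC_BA against Col_PAC_GA_BA, 247215_at was 5e-04 after quantile normalization and 0.0283 after centring. With 1 array left out it ran from -0.8421 to 0.7611, AT1G51890 from -0.0295 to 0.5487, 248844_s_at from -0.0706 to 0.2683 and 259952_at from -0.0313 to 0.2324. For Col_PAC_BA against Col_mock, AT2G27710 was 0.0284 after quantile normalization and 0.0529 after centring, and with 1 array left out it ran from -0.3478 to 0.3386 and 259952_at from -0.13 to 0.1907. For Col_PAC_GA_BA against Col_mock, 259952_at ran from -0.2305 to 0.0902.

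The labels do not say that a replicate number marks a shared batch, so no pairing was assumed. The deviations of same-numbered arrays correlated at -0.33 to 0.48 over 28 pairs of groups, above 0.1 in 21 of them and in all 6 within the line (0.11 to 0.41), and at 0.17 between Col_PAC_BA and Col_PAC_GA_BA. With the replicate block the calls were 3, 1032 and 869 in the 3 comparisons.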

Other observations

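With thresholds of 0.6 for the DEX response in PAC and 0.4 for the difference, chosen after seeing the data, 52 probe sets were found, 31 of them with 1 gene. Of the 52, 49 were higher with GA3 in the uninduced line, beside 5395 of all 9454. The median was 0.58, against 0.05 over all tested probe sets. For 40 of the 52 the uninduced part of the difference was larger than the induced part. The same condition with signs kept held for 5702 of all 9454. Where a difference is not positive, that condition does not tell which part was larger, so 5702 is not a matching share for the 52. These values come from the arrays that chose the probe sets. On the arrays with BA, which took part only in the filter on dim probe sets, 31 of the 52 were higher in Col_PAC_BA than in Col_PAC_GA_BA, with a median of 0.08, beside 4190 of all 9454 with a median of -0.04.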
